A study of Mus musculus with 12 samples.

Results

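The 5 genes described here encode transcription factors of embryonic patterning: the COUP-TF nuclear receptors Nr2f1 and Nr2f2, the homeodomain proteins Meis1 and Meis2, and the zinc finger protein Zfp503. They were followed through 12 Affymetrix mouse arrays of mouse primordial germ cells (PGCs) and of PGC-like cells (PGCLCs) made in culture. A probe set was taken where the platform annotation names 1 of the 5 genes and no other, which gave 16 of the 45101 probe sets. Each gene was read from its probe set with the highest mean over the 12 arrays, so that the members were 5 of 18194 genes on the array.

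The 6 groups held 2 arrays each, labelled as biological replicates. The d3 and d6 female groups were female PGCLCs after 3 and 6 days of culture, and d3ag6 cells were day 3 female PGCLCs kept for a further 6 days in aggregates with female E12.5 gonadal somatic cells. The d6 male group was male PGCLCs at day 6. All 4 PGCLC groups were of C57BL/6 background and carried the Blimp1-mVenus and stella-ECFP reporter transgenes (BVSC). The 2 embryo groups were female E12.5 PGCs and E9.5 PGCs of unknown sex, marked by a stella-EGFP transgene. Cells of every group were sorted by these reporters, so a reporter stood in for cell identity, and the embryo cells came from C57BL/6 male by wild-type BDF1 female crosses. The arrays carried 3 codes in their descriptions: EA1013 for all 8 arrays of E12.5 and of the 3 female PGCLC groups, and EA0831 and EA0842 for replicate 1 and replicate 2 of both E9.5 and d6 male. Code and group therefore cannot be told apart where d6 female or E12.5 is set against E9.5, or d6 female against d6 male. Strain and reporter differ between all PGCLC groups and both embryo groups. In any comparison of PGCLCs with embryo PGCs, d6 male minus E9.5 included, they cannot be told apart from cell source.

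Nr2f1 (COUP-TFI) and Nr2f2 (COUP-TFII) are closely related orphan nuclear receptors that bind repeats of the AGGTCA half-site and pattern the embryonic nervous system, vessels and mesenchyme. Meis1 and Meis2 are TALE homeodomain proteins that bind DNA together with Pbx and Hox proteins and are induced by retinoic acid along the body axis and in the limb. Zfp503 (Nolz1) is a zinc finger repressor of the NET family with roles in the hindbrain, striatum and limb. All 5 are best known from somatic tissues of the embryo.

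The members were picked with measured values of these arrays in view. Zfp503 stood among the largest differences of d6 female cells from d3, from d3ag6 and from E9.5 cells, and Nr2f1 among those of d6 female from E9.5 cells. These 3 comparisons, and the remaining 2 that use the same E9.5 arrays, are given as description with no p. All levels are quantile-normalized log2 signals, and a difference of 1 on this scale is a 2-fold difference in signal. Levels of different probe sets are not set against each other. The median of all values, 4.81, served as the limit between bright and dim signals and is no detection call. Genes above it on 2 or more arrays entered the test, 13436 in all. All 5 members passed, but Nr2f1 and Nr2f2 did so through the 2 E9.5 arrays alone.

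Nr2f1 and Nr2f2 had high signal in E9.5 PGCs and signal below 4.81 on every other array. Nr2f1 (probe set 1418157_at, its only one) read 1.78 and 2.33 in d3, 1.51 and 1.62 in d6 female, 3.23 and 3.85 in d3ag6, 1.68 and 2.54 in d6 male, 3.08 and 3.11 in E12.5, and 8.32 and 6.46 in E9.5 cells. Both E9.5 arrays lay above all 10 others, and the E9.5 mean of 7.39 ± 1.32 (SD, n = 2) exceeded that of the next group, d3ag6, by 3.85 (SE 0.54). Below E9.5 no group differed from its neighbour in the order d3ag6, E12.5, d6 male, d3 and d6 female by 2 standard errors.

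Nr2f2 (1416158_at) read 3.00 and 3.04 in d3, 3.59 and 3.25 in d6 female, 4.43 and 4.79 in d3ag6, 3.48 and 3.19 in d6 male, 3.36 and 2.44 in E12.5, and 8.52 and 6.28 in E9.5 cells. The order again opened with E9.5, at 7.40 ± 1.59 (SD, n = 2), and d3ag6, at 4.61 ± 0.26 (SD, n = 2), a gap of 2.79 (SE 0.60). The remaining 4 groups averaged 2.90 to 3.42 and did not differ between neighbours beyond their spread. The annotation assigned 5 further probe sets to Nr2f2, and none of them passed 4.81 on any array. The 2 that share the accession of the chosen one, 1416160_at and 1416159_at, were deposited as exactly 0 on 7 and 9 of the 12 arrays, and the signal of each was highest on E9.5 replicate 1, at 2.87 and 2.25. For 1436475_at and 1444229_at the E9.5 mean exceeded the next group by 0.31 and 0.12, and for 1431237_at it lay 0.54 under the highest group (a difference of -0.54).

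Meis2 lay above 4.81 on all 12 arrays and was also highest in E9.5 cells. Its chosen probe set (1457632_s_at) read 6.97 and 7.10 in d3, 6.18 and 6.13 in d6 female, 7.10 and 7.32 in d3ag6, 6.27 and 6.47 in d6 male, 6.59 and 6.80 in E12.5, and 9.03 and 7.94 in E9.5 cells. E9.5 exceeded d3ag6 by 1.28 (SE 0.30), and no other neighbours in the order differed beyond their spread. The lowest group was d6 female, at 6.15 ± 0.03 (SD, n = 2).

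Of the other Meis2 probe sets, 1447861_x_at and 1417129_a_at followed the chosen one over the 12 arrays, with Pearson r of 0.954 and 0.912 as a description. For 1447861_x_at the group means were 6.14 in d3, 4.17 in d6 female, 6.18 in d3ag6, 5.20 in d6 male, 5.41 in E12.5 and 7.85 in E9.5 cells. For 1417129_a_at they were 5.09, 3.77, 5.56, 5.36, 5.24 and 7.88 in the same groups. Both thus had their lowest mean in d6 female and their highest in E9.5, as the chosen probe set had. The fourth, 1440091_at, stayed below 4.81 on all arrays. Affymetrix uses the endings _s_at and _x_at for probe sets that can match more than 1 transcript, and no sequence of the probes was at hand to place them.

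**Figure D1:**
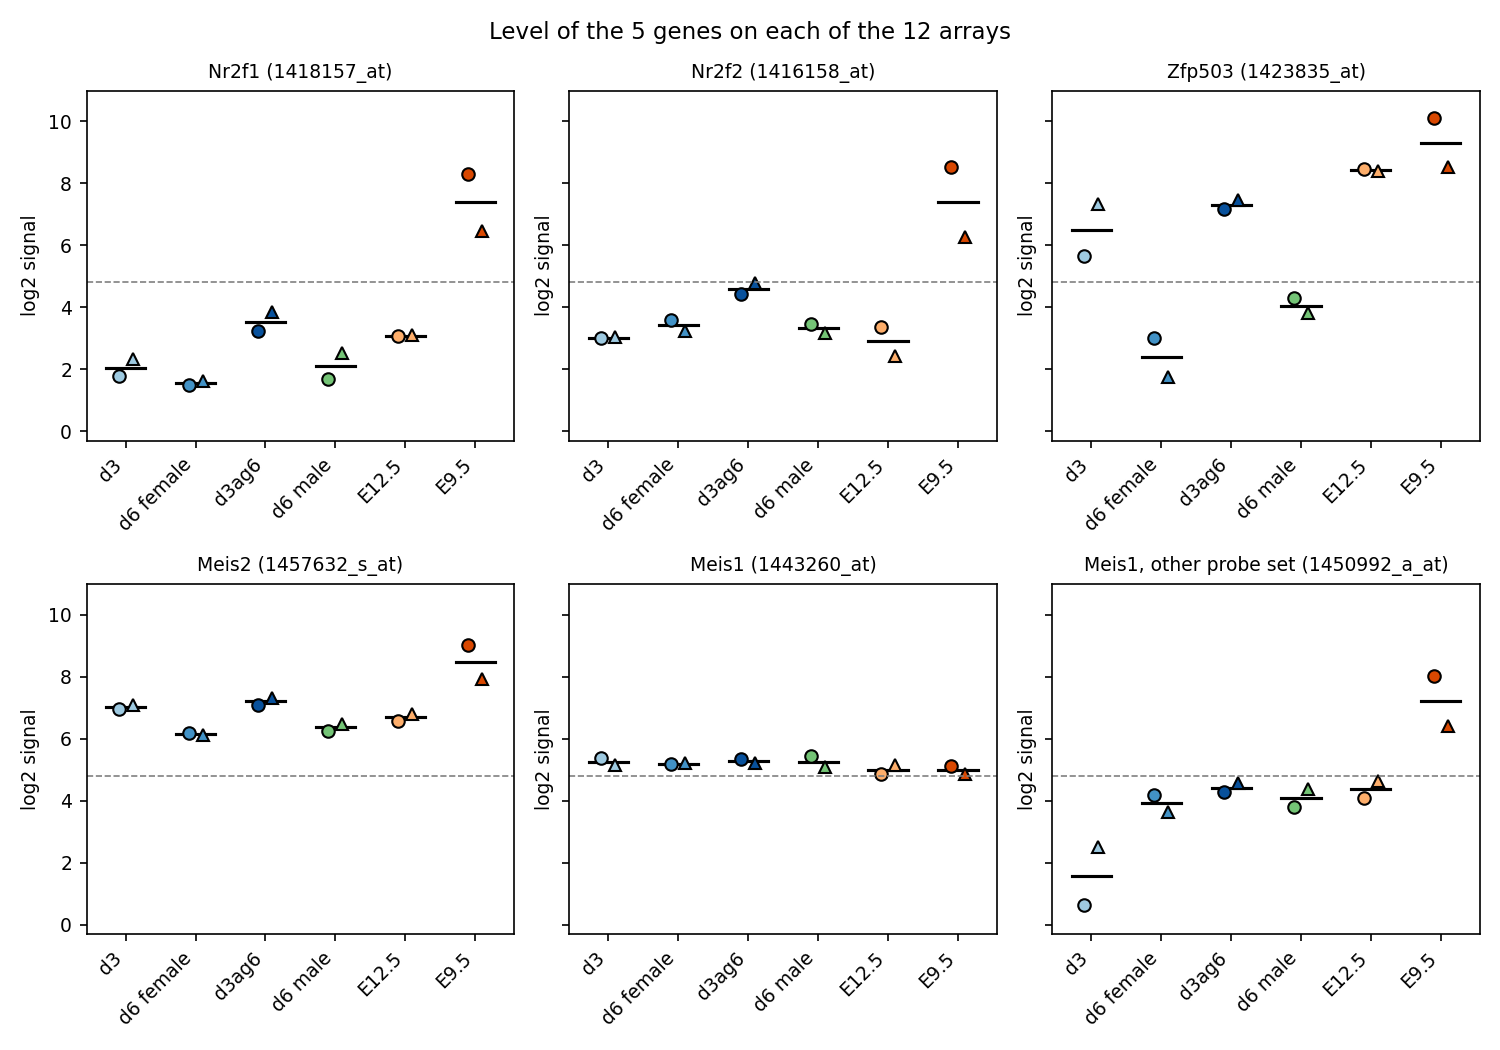
Log2 signal (vertical axis) of the 5 genes, and of a second Meis1 probe set, on each of the 12 arrays in the 6 groups (horizontal axis). Circles are replicate 1, triangles replicate 2, bars group means, and the dashed line is the median of all values, 4.81. For Nr2f1 and Nr2f2 only the 2 E9.5 arrays stand above the line, and the chosen Zfp503 probe set is lowest in d6 female and d6 male cells.

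Zfp503 had the widest range of the chosen probe sets, 8.33 log2 units, and was high in more groups than E9.5 alone. Its probe set 1423835_at read 5.66 and 7.35 in d3, 3.02 and 1.77 in d6 female, 7.16 and 7.48 in d3ag6, 4.31 and 3.82 in d6 male, 8.48 and 8.39 in E12.5, and 10.1 and 8.52 in E9.5 cells. E9.5, E12.5, d3ag6 and d3 followed each other in this order without a gap beyond the spread. The d6 male mean lay 2.44 below d3 (SE 0.65), and the d6 female mean of 2.39 ± 0.89 (SD, n = 2) lay 1.67 below d6 male. The 2 day 6 groups were thus the low ones, with all 4 arrays below 4.81 and all 8 others above it.

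The second Zfp503 probe set gave a narrower pattern. From 1423836_at, which shares the accession of the first, the group means were 5.59 in d3, 6.17 in d6 female, 6.13 in d3ag6, 5.66 in d6 male, 6.30 in E12.5 and 7.46 in E9.5 cells. E9.5 was again highest, with both arrays above the 10 others, but the low values of day 6 cells were not seen here. The choice between them was close: the mean over 12 arrays was 6.34 for the chosen probe set and 6.22 for the other, and their correlation over the arrays was 0.534. In d6 female minus d3 the chosen probe set differed by -4.11 (SE 0.65) and the other by 0.58 (SE 0.23). In d3ag6 minus d6 female the chosen one differed by 4.93 and the other by -0.04.

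Meis1 depended on the probe set even more. The chosen 1443260_at read 5.38 and 5.16 in d3, 5.18 and 5.23 in d6 female, 5.35 and 5.22 in d3ag6, 5.44 and 5.10 in d6 male, 4.86 and 5.17 in E12.5, and 5.14 and 4.86 in E9.5 cells. All 12 values lay within 0.58 of each other, and no neighbouring groups differed beyond their spread. By contrast 1450992_a_at read 0.65 and 2.50 in d3, 4.19 and 3.65 in d6 female, 4.28 and 4.57 in d3ag6, 3.80 and 4.38 in d6 male, 4.09 and 4.65 in E12.5, and 8.02 and 6.43 in E9.5 cells. Like Nr2f1 and Nr2f2, it exceeded 4.81 on the 2 E9.5 arrays alone. Its mean over the 12 arrays, 4.27, was below those of 1443260_at, 5.17, and of the flat 1459423_at, 4.62, so that it was not the one chosen. The correlation of 1450992_a_at with the chosen probe set was -0.455, and which of them reads the Meis1 transcript was not tested.

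**Figure D2:**
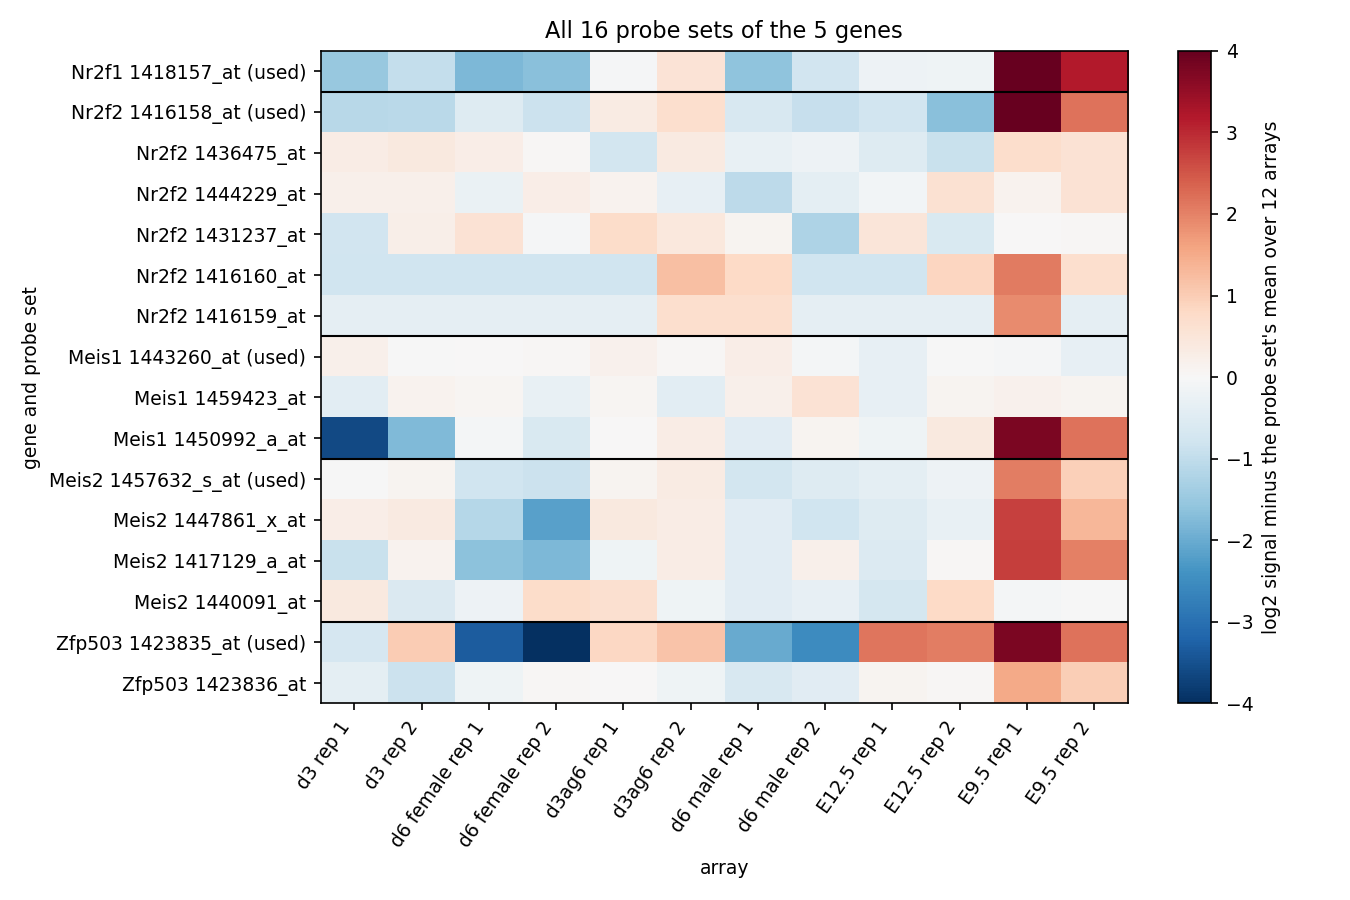
All 16 probe sets of the 5 genes (rows) on the 12 arrays (columns), as log2 signal minus the mean of that probe set over the 12 arrays. Red is above and blue below that mean, and the colour scale ends at 4 and -4, so larger deviations take the end colours. The 2 E9.5 columns on the right are red for Nr2f1, for 1 of the 6 Nr2f2 probe sets most clearly, for Meis1 1450992_a_at, for 3 of 4 Meis2 probe sets and for both of Zfp503.

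The windows of 250 bases before the annotated starts of Nr2f1, Nr2f2 and Meis2 are shown because these are the 3 genes whose chosen probe set set E9.5 apart from the next group. They come from RefSeq (GRCm38.p6), and all 5 members had an entry. Nr2f1 has a window at chr13:78198874-78199123, Nr2f2 at chr7:70366747-70366996 and Meis2 at chr2:116064620-116064869, each on the minus strand and printed 5′ to 3′ up to the base before the start. Capitals mark matches to the motifs named after the sequences.
Nr2f1: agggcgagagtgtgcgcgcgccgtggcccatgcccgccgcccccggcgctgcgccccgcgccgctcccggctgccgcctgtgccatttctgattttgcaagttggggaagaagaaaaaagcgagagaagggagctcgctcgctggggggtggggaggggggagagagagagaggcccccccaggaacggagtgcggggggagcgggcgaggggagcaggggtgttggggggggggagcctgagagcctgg
Nr2f2: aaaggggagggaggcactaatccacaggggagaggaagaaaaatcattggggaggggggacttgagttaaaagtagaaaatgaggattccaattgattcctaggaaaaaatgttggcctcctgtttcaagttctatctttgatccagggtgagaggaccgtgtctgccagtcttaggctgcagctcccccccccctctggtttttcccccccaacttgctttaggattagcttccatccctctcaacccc
Meis2: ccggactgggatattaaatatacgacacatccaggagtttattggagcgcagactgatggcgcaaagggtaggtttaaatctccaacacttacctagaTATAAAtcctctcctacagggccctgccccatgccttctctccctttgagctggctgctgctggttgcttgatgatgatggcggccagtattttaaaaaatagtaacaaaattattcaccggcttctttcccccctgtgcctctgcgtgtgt

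Their GC content was 72.0% for Nr2f1, 50.0% for Nr2f2 and 47.6% for Meis2, beside a median of 52.4% over 32851 RefSeq promoter windows of the same length. Both strands were searched for the nuclear receptor half-site AGGTCA, its repeats AGGTCANAGGTCA and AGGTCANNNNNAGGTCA (each of which also holds the half-site), the MEIS core TGACAG, the PBX-HOX site TGATNNAT and TATAAA. The single match was TATAAA in Meis2, 152 to 147 bases before its start. Of all windows 14.0% hold AGGTCA, 15.9% TGACAG, 7.68% TGATNNAT and 12.4% TATAAA, and the 2 repeats occur in 0.0335% and 0.00913%. The windows of Meis1 and Zfp503, with a GC content of 59.6% and 57.2%, and a second annotated start of Nr2f1, had no match either, which says only that these letters are not there.

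Against E9.5 PGCs, the 4 genes other than Meis1 were lower in each of the 3 groups compared. In d6 male minus E9.5 the differences were -5.28 for Nr2f1 (SE 0.54), -4.06 for Nr2f2 (SE 0.60), -2.12 for Meis2 (SE 0.30) and -5.24 for Zfp503 (SE 0.65), and Meis1 differed by 0.27 (SE 0.19). In d6 female minus E9.5 they were -5.82, -3.98, -2.33 and -6.91, with 0.20 for Meis1. In E12.5 minus E9.5 they were -4.29, -4.50 and -1.79 for Nr2f1, Nr2f2 and Meis2, but -0.87 (SE 0.65) for Zfp503. That smaller difference belongs to the chosen Zfp503 probe set. The other, 1423836_at, gave -1.80 in d6 male, -1.29 in d6 female and -1.16 in E12.5 minus E9.5 (SE 0.23 in each).

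By limma with Benjamini-Hochberg adjustment over all genes (called at an adjusted p under 0.05), 4 of 5 members were called in d6 male minus E9.5, where 10.6% of all genes were called and 4.55% were called lower. In d6 female minus E9.5 it was 4 of 5, with 13.9% of all genes called and 5.60% called lower. In E12.5 minus E9.5 it was 3 of 5 by the chosen probe sets, all but Meis1 and Zfp503, with 23.6% called and 10.7% called lower. The median difference of the members in the order d6 male, d6 female and E12.5 was -4.06, -3.98 and -1.79, beside 0.00, 0.06 and 0.08 over all tested genes. The members had been chosen on the E9.5 arrays and the 3 comparisons share them, so nothing is read from these counts. With 1450992_a_at for Meis1, that gene's differences became -3.14, -3.30 and -2.86 in the same order, and the counts 5, 5 and 4 of 5.

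The pair of d6 male and E9.5 is the one that each array code holds in full. Within EA0831, d6 male minus E9.5 gave -6.64 for Nr2f1, -5.04 for Nr2f2, -2.76 for Meis2, -5.79 for Zfp503 and 0.30 for Meis1. Within EA0842 it gave -3.92, -3.08, -1.47, -4.70 and 0.24 in the same order. Every member but Meis1 was thus lower in d6 male cells within both codes, by a smaller amount in the second. A share of these differences rests on signals below 4.81 in d6 cells. With all values below 4.81 raised to it, the d6 female minus E9.5 difference was -2.57 for Nr2f1, -2.59 for Nr2f2 and -4.50 for Zfp503.

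**Figure D3:**
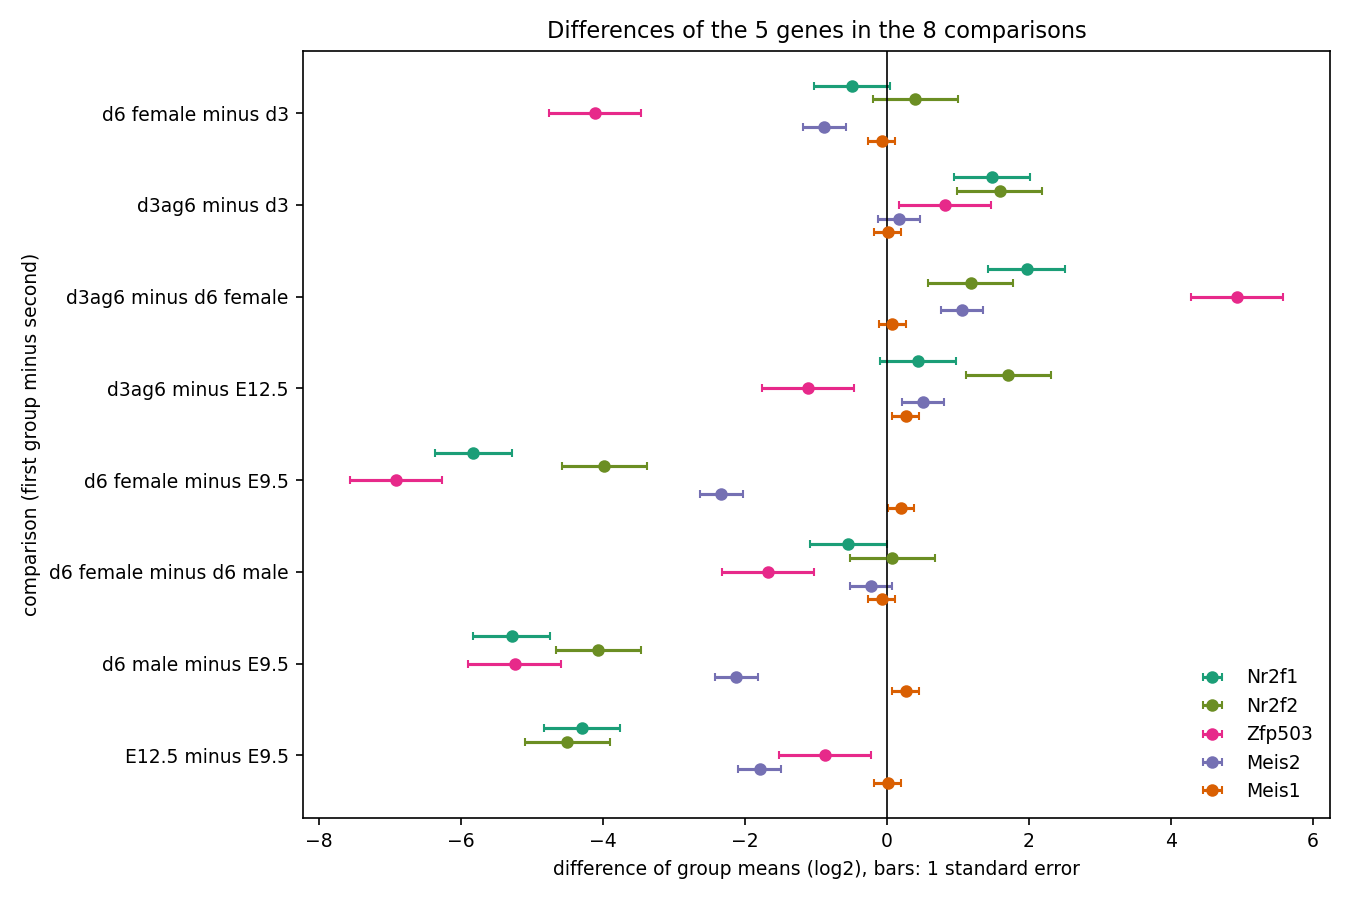
Difference of group means (first group minus second, log2, horizontal axis) for the 5 genes in the 8 comparisons, with bars of 1 standard error from the fit over all 12 arrays. Nr2f1, Nr2f2, Meis2 and Zfp503 lie left of 0 in the 3 comparisons with E9.5, and Meis1 lies within 0.30 of 0 in all 8.

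The E9.5 arrays also held more signal of mesenchymal, neural and embryonic globin genes than the rest. E9.5 replicate 1 exceeded replicate 2 by 1.86 for Nr2f1, 2.24 for Nr2f2, 1.10 for Meis2, 1.57 for Zfp503 and 0.28 for Meis1. A gap over 1 in this direction was found for 4 of 5 members and for 6.42% of all tested genes. Among genes with both E9.5 arrays above the 10 others, as those 4 members had, the share was larger than among all tested genes. The members had been chosen on the E9.5 arrays, so nothing is read from this count. The summed level of 12 mesenchyme and stroma markers was 84.0 and 70.9 on E9.5 replicates 1 and 2, beside 48.8 to 64.4 on the 10 other arrays. For 6 neural markers it was 40.7 and 32.0, beside 23.2 to 29.2, and for 10 macrophage and blood markers 67.2 and 60.2, beside 42.9 to 57.4. Without the embryonic globins Hbb-y and Hba-x, the 8 other macrophage and blood markers summed to 42.0 and 37.1 on the E9.5 arrays, beside 37.6 to 51.4. The 12 gonadal somatic markers summed to 65.6 and 59.5, beside 54.1 to 68.3, and the 9 endothelial ones to 56.7 and 57.0, beside 47.2 to 73.4. The part of these cell types in the members' levels was not tested. In sorted bulk samples, fewer cells of a type and less RNA per cell cannot be told apart.

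Without E9.5 replicate 1, the d6 male minus E9.5 difference was -4.35 for Nr2f1, -2.94 for Nr2f2, -1.57 for Meis2 and -4.46 for Zfp503. In E12.5 minus E9.5 it was -3.36, -3.38 and -1.24 for Nr2f1, Nr2f2 and Meis2, and -0.08 for Zfp503. The 9 germ cell markers measured summed to 93.1 and 92.2 in E9.5 cells and to 92.9 to 105.7 on the others, with E9.5 replicate 2 the lowest. Such sums do not measure the share of other cells in a sample. All 9 exceeded 4.81 on every array, except Dazl, a germ cell RNA-binding protein, at 3.81 on E9.5 replicate 2.

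Within those lists the named genes differed as follows in the comparisons with E9.5. Of 10 tested mesenchyme markers 5 fell in d6 male cells, first by adjusted p Twist1, a mesenchymal bHLH factor (-3.89, SE 0.73), and Postn, a matrix protein (-2.37, SE 0.48). In E12.5 cells 8 of the 10 fell, first by adjusted p Col3a1, a fibrillar collagen (-4.74, SE 0.46), and none rose in either. The list medians were -2.12 and -2.74, beside the 0.00 and 0.08 of all genes. Without E9.5 replicate 1 the counts that fell were 1 and 5. Of 8 tested blood markers, the embryonic globins Hbb-y and Hba-x fell in both comparisons, by 9.98 and 7.64 in d6 male and by 5.50 and 6.18 in E12.5 cells, and Tyrobp, of myeloid cells, rose by 0.97 in E12.5 cells. Sox1 and Neurog2, transcription factors of neural progenitors, fell in both, by 3.93 and 3.75 in d6 male and by 4.67 and 2.92 in E12.5 cells. Of the 5 tested neural markers, Olig2 also fell in E12.5 cells, where Pax6 rose by 1.57.

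The partners and relatives of the members moved unevenly. Hox proteins bind DNA beside Meis and Pbx, and of 11 tested Hox genes 6 fell in d6 male and 8 in E12.5 cells relative to E9.5, with none higher (medians -1.67 and -2.28). Hoxd9 fell by 2.91 (SE 0.27) in d6 male cells and Hoxa9 by 4.56 (SE 0.51) in E12.5 cells. With genes required to exceed 7.59, the 75th percentile of all values, on 2 arrays, 1 Hox gene remained in the test, and it fell in both. Unlike Nr2f1 and Nr2f2, the Hox list was also high in d3 cells. Its summed level over 15 genes was 75.6 and 81.1 in d3, 58.1 and 61.1 in d6 female, and 55.8 and 56.7 in d3ag6 cells. It was 56.3 and 57.7 in d6 male, 52.6 and 54.0 in E12.5, and 93.0 and 78.7 in E9.5 cells.

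Of 13 other TALE genes tested, 3 fell and 1 rose in d6 male cells, and 4 fell and 1 rose in E12.5 cells, relative to E9.5 (medians -0.55 and -0.50). Pknox2, a TALE protein of the same subclass as Meis, fell by 2.67 (SE 0.47) in d6 male and 2.33 in E12.5 cells, and Meis3 fell by 0.72 and 0.91. Tgif1, a TALE repressor, followed the chosen Zfp503 probe set in the culture steps. It fell by 3.55 (SE 0.48) in d6 female cells relative to d3 and rose by 2.66 in d3ag6 relative to d6 female cells. The other Zfp503 probe set, 1423836_at, differed by 0.58 and -0.04 in these steps. Of 7 tested relatives of the COUP-TFs in the NR2 and RXR families, none passed in d6 male minus E9.5, and Rxra, the common dimer partner of nuclear receptors, rose by 0.68 (SE 0.15) in E12.5 cells. Their summed level over 8 genes ranged from 58.3 to 61.0 on the 10 other arrays and was 60.0 and 59.9 in E9.5 cells.

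Sp8 and Sp5, zinc finger factors of the Sp family, both fell in d6 female cells relative to d3 (-1.68, SE 0.27, and -2.24, SE 0.43). In E12.5 cells relative to E9.5 they went separate ways. Sp8 fell by 3.87 (SE 0.27) in d6 male and 2.44 in E12.5 cells relative to E9.5. Sp5 rose by 2.65 (SE 0.43) in E12.5 cells relative to E9.5 and by 2.98 in d3ag6 relative to d6 female cells. Zfp703, the closest relative of Zfp503, passed in none of the 8 comparisons, and its group means stayed between 5.24 and 6.05.

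Retinoic acid induces Meis genes and the COUP-TFs in several embryonic tissues, and its response genes were split. Relative to E9.5, 6 of 13 tested fell in d6 male cells and none rose, and in E12.5 cells 4 fell and 2 rose (medians -0.74 and -0.49). Aldh1a2, which makes retinoic acid, fell by 4.32 (SE 0.34) in d6 male and 1.56 in E12.5 cells, and Hoxb1, a direct retinoic acid target of the hindbrain, fell by 4.12 and 3.91. Stra8, the retinoic acid-induced gene of meiotic entry, rose by 6.57 (SE 0.36) in E12.5 cells, and Rec8, a meiotic cohesin, by 2.55. In d3ag6 relative to d6 female cells 4 of 13 rose and none fell, Stra8 by 6.80 and Aldh1a2 by 2.04. The summed level of the 14 genes was 86.0 and 87.9 in d3ag6, 87.5 and 89.9 in E12.5, and 92.6 and 87.0 in E9.5 cells, and 68.4 to 77.1 in d3, d6 female and d6 male cells. The chosen Zfp503 probe set was also above 4.81 in d3ag6, E12.5 and E9.5 cells, and in d3 cells too. Its other probe set, 1423836_at, and the chosen ones of Meis1 and Meis2 were above 4.81 on all 12 arrays.

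**Figure D4:**
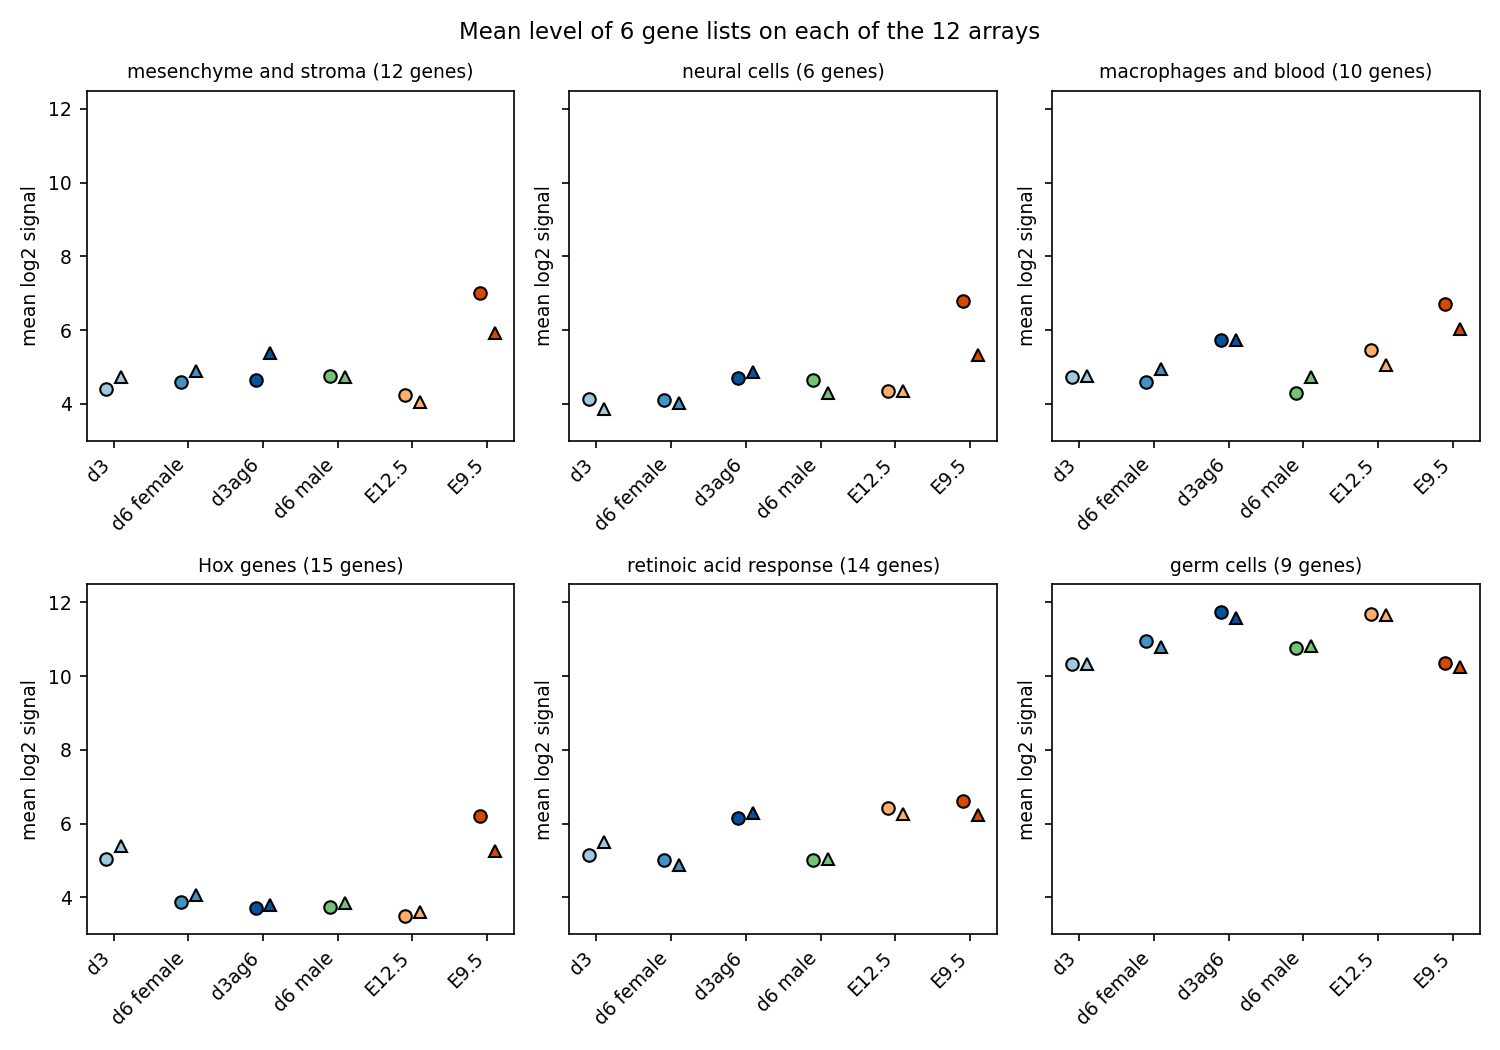
Mean log2 signal (vertical axis) of 6 gene lists on each of the 12 arrays in the 6 groups (horizontal axis), with circles for replicate 1 and triangles for replicate 2. The mesenchyme, neural, and macrophage and blood lists are highest on the 2 E9.5 arrays, the last of them through Hbb-y and Hba-x, the Hox list is high in d3 and E9.5 cells, and germ cell markers lie between 10 and 12 throughout.

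The steps in culture and in aggregates were then compared. In d6 female minus d3, Nr2f1 differed by -0.49, Nr2f2 by 0.40, Meis1 by -0.07 and Meis2 by -0.88, beside the -4.11 of Zfp503. Of the 5 members 1 was called, where 4.06% of all genes were called. In d3ag6 minus d6 female, all 5 differences were positive, at 1.97 for Nr2f1 (SE 0.54), 1.18 for Nr2f2 (SE 0.60), 0.08 for Meis1 (SE 0.19), 1.06 for Meis2 (SE 0.30) and 4.93 for Zfp503 (SE 0.65). Again 1 member was called, Zfp503, where 6.39% of all genes were called. Zfp503 had been among the largest differences of both comparisons, so nothing is read from these 2 counts. The 2 further Meis2 probe sets, 1447861_x_at and 1417129_a_at, differed by 2.02 (SE 0.45) and 1.79 (SE 0.41). Both comparisons share the d6 female arrays. With values below 4.81 raised to it, Zfp503 differed by -1.69 in d6 female minus d3 and by 2.51 in d3ag6 minus d6 female, and Nr2f1 and Nr2f2 by 0.

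Markers of the somatic cells that d3ag6 cells were aggregated with also differed there. The 12 gonadal somatic markers summed to 66.5 and 68.3 in d3ag6 cells and to 57.3 and 55.8 in d6 female cells. The 10 macrophage and blood markers summed to 57.4 and 57.2 in d3ag6 cells and to 45.9 and 49.4 in d6 female cells. Of 9 tested gonadal somatic markers 2 rose and 7 did not pass, and of 8 tested macrophage and blood markers 2 rose and 6 did not pass. Among those that rose were Lyz2, a lysozyme of macrophages, by 4.04 (SE 0.32) and Amhr2, a gonadal somatic receptor, by 3.12 (SE 0.31). The part of these somatic cells in the members' differences was not tested.

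In day 3 cells after and before aggregation, no member stood among the 3 largest differences in either direction. In d3ag6 minus d3, Nr2f1 differed by 1.48 (SE 0.54, limma adjusted p = 0.1269) and Nr2f2 by 1.59 (SE 0.60, limma adjusted p = 0.1437). Zfp503 differed by 0.82 (adjusted p = 0.5074), Meis2 by 0.17 (adjusted p = 0.7964) and Meis1 by 0.01 (adjusted p = 0.9807) in the same limma fit. None of the 5 was called, where 10.6% of all genes were called at an adjusted p under 0.05 and 3248 genes had an unadjusted p under 0.05. The arrays of the groups did not overlap for Nr2f1 and Nr2f2, with 28.7% of all genes higher in d3ag6 without overlap.

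Nr2f1 and Nr2f2 entered this test only through their E9.5 values. All their values in d3ag6 and d3 cells lay below 4.81, and with values raised to that limit the differences were 0. Without both E9.5 arrays, and with the filter on the 10 others, neither gene passed the filter. None of the 3 members then tested was called, where 11.4% of all genes were called. For Meis1, 1450992_a_at gave 2.85 (SE 0.64), with both d3 arrays, at 0.65 and 2.50, below all other values of that probe set. It too passed 4.81 on the E9.5 arrays alone.

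Aggregated cells were then set against E12.5 PGCs, the embryonic stage whose gonadal cells they had been cultured with. In d3ag6 minus E12.5, Nr2f2 differed by 1.71 (SE 0.60, limma adjusted p = 0.1225), Nr2f1 by 0.44 (adjusted p = 0.6999), Meis2 by 0.51 (adjusted p = 0.3671) and Meis1 by 0.27 (adjusted p = 0.4676). Zfp503 lay below E12.5, with a difference of -1.11 (SE 0.65, limma adjusted p = 0.3612). None of the 5 was called, where 9.03% of all genes were called and 3090 had an unadjusted p under 0.05. Without both E9.5 arrays, and with the filter on the 10 others, none of the 3 members tested was called, where 9.65% of all genes were called. In a fit of these 2 groups alone 2 members were called, where 12.3% of all genes were called. They were Zfp503 (limma adjusted p = 0.02478) and Nr2f2. In this fit and in that of all arrays, Nr2f1 and Nr2f2 were tested only through their E9.5 values. All their values in d3ag6 and E12.5 cells lay below 4.81, and with values raised to that limit their differences were 0. Nothing is therefore read from their p-values or from the call of Nr2f2.

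Between female and male PGCLCs at day 6, no member was called. In d6 female minus d6 male, Zfp503 differed by -1.67 (SE 0.65, limma adjusted p = 0.2241), Nr2f1 by -0.54 (adjusted p = 0.6221), Meis2 by -0.22 (adjusted p = 0.7317), Meis1 by -0.07 (adjusted p = 0.8766) and Nr2f2 by 0.08 (adjusted p = 0.9532). Of all genes 1.47% were called and 2451 had an unadjusted p under 0.05. In both groups all values of Nr2f1, Nr2f2 and the chosen Zfp503 probe set lay below 4.81. With values raised to that limit their differences were 0. Nr2f1 and Nr2f2 entered this test only through their E9.5 values. From 1423836_at, Zfp503 differed by 0.50 (SE 0.23), in the other direction. Sex and array code coincide in this comparison and cannot be told apart. The 3 comparisons with p-values share d3ag6 or d6 female arrays with the others.

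Over the 12 arrays the chosen probe sets of Nr2f1, Nr2f2 and Meis2 varied together, with Pearson r of 0.924 between Nr2f1 and Nr2f2, 0.939 between Nr2f1 and Meis2 and 0.884 between Nr2f2 and Meis2. Zfp503 had r of 0.746 with Nr2f1, 0.534 with Nr2f2 and 0.783 with Meis2, and Meis1 had negative r with all 4, between -0.446 and -0.248. These describe arrays that share groups, and the E9.5 pair carries much of the range. Both E9.5 arrays exceeded the 10 others for 4 of 5 members and for 5.37% of all tested genes. The members had been chosen on the E9.5 arrays, so nothing is read from this count.

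Among 12702 other tested genes with an official symbol, those most alike by Pearson r over the 12 arrays were sought for each member. For Nr2f1 they were Fez1, an axon growth protein (0.958), Pxylp1, a xylose phosphatase of proteoglycan synthesis (0.955), and Ltbp1, which anchors latent TGF-beta in the matrix (0.954). For Nr2f2 they were Fam181b (0.982), Fez1 again (0.946) and Fbn2, a fibrillin of embryonic microfibrils (0.937). Fbn2 read 9.84 and 8.29 in E9.5 cells and 4.51 to 6.77 on the other arrays. For Meis2 they were Macroh2a2, a histone variant (0.949), Hoxb1 (0.944) and Iqgap2, a scaffold protein (0.941). Hoxb1 read 7.23 and 6.18 in E9.5 cells and 2.53 to 3.77 elsewhere.

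For Zfp503 the most alike were Adgra3, an adhesion receptor (0.972), Mdk, the heparin-binding growth factor midkine (0.955), and Hmcn1, a basement membrane protein (0.932). Adgra3 read 8.01 and 8.21 in d3, 5.96 and 5.60 in d6 female, 8.14 and 8.74 in d3ag6, 6.14 and 6.40 in d6 male, 9.36 and 9.20 in E12.5, and 9.69 and 8.57 in E9.5 cells. It was thus low in both day 6 groups, as the chosen Zfp503 probe set was. The flat Meis1 probe set was nearest to Wrn, a DNA helicase (0.955), Zp1, an egg coat protein (0.925), and Fntb, a farnesyltransferase subunit (0.879).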

How the data were processed

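Expression was measured on 12 Affymetrix mouse arrays, 2 in each of 6 groups, with group and replicate number from the sample titles. Per the labels' protocols, RNA of reporter-sorted cells was amplified by PCR before labelling, which can widen the spread of dim genes. The authors deposited log2 values of 45101 probe sets. The log2 scale was inferred from array maxima between 13.76 and 13.93, since base, summarisation and normalization are not given in the sources used here. Array medians were 4.73 to 4.87, and 2.07% to 2.3% of the values of an array were exactly 0. The number of arrays limits the precision.

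The platform annotation named 1 gene for 34958 probe sets, several for 932 and none for 9211. Of the first, 34754 were matched to current symbols by gene ID. The deposited log2 values were quantile-normalized, 1 probe set was kept per gene (the highest mean over 12 arrays), and genes with at least 2 arrays above 4.81, the median of all values, were tested. A model of group means over all 12 arrays, with 6 residual degrees of freedom, was fitted with limma 3.58.1 in R 4.3.3 and moderated by eBayes. P-values were two-sided and adjusted by Benjamini-Hochberg over 13436 genes, and calls needed an adjusted p below 0.05. Standard errors are those of this fit. Neighbours in an order of levels were taken to differ beyond their spread where their arrays did not overlap and their difference reached 2 standard errors. Replicates are labelled biological, but nothing names separate cultures or embryos, so p-values may measure technical spread.

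Named genes were the 5 members, up to 4 genes per list in order of adjusted p in the comparison described, and the 3 genes most alike to each member by Pearson r. The members and lists were chosen with earlier results of these data known. Tgif1, Zfp703, Lyz2, Amhr2, Olig2, Pax6, Sp5 and Dazl are named where the text turns on them, after their values were seen. Promoter windows of RefSeq (GRCm38.p6) were searched with Python 3.11.15. The fit was tested on simulated data for d6 male minus E9.5, with 200 of 13436 genes changed: 34% of 2-fold and 83% of 4-fold changes were recovered, with 8.6% of the calls false. Same-numbered replicates deviated together with r between -0.252 and 0.547 over the pairs of groups, so the numbers were not taken to pair the samples. The highest was that of E9.5 and d6 male, whose numbers coincide with the array codes. No probe sequence was used here.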

Additional observations from a re-analysis of the deposited data

Results flagged for a closer look

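Nr2f1, Nr2f2, Meis2 and Zfp503 were picked out because d3ag6 minus d6 female went up on both arrays while E12.5 minus E9.5 went down on both. The gap between the 2 differences was 6.26 for Nr2f1 (1.97 and -4.29), 5.69 for Nr2f2 (1.18 and -4.50), 2.85 for Meis2 (1.06 and -1.79) and 5.80 for Zfp503 (4.93 and -0.87). The gap itself was not tested for any of them. The members had been chosen on the E9.5 arrays, and Zfp503 was also among the largest differences of d3ag6 minus d6 female. Nothing is therefore read from the size of these gaps. For Zfp503, E12.5 minus E9.5 was -0.08 without E9.5 replicate 1. From 1423836_at, Zfp503 differed by -0.04 in d3ag6 minus d6 female and by -1.16 in E12.5 minus E9.5. All d3ag6 and d6 female values of Nr2f1 and Nr2f2 lay below 4.81, and with values raised to it their difference was 0. Array code and group cannot be told apart in E12.5 minus E9.5.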

How the results depend on the processing

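The alternatives were the values as deposited, other filters, another probe set rule, a floor at 4.81, a replicate block, an array code block, each comparison's arrays alone, trend and robust moderation, a 2-fold limit and each array left out. Chosen after seeing the data were Meis1 from 1450992_a_at, every probe set as its own row, and the fits without both E9.5 arrays. With the replicate number as a block (replicate block) the number of members called did not change in any of the 8 comparisons. It was 1 for d6 female minus d3, 0 for d3ag6 minus d3, 1 for d3ag6 minus d6 female and 0 for d3ag6 minus E12.5. It was 4 for d6 female and 4 for d6 male minus E9.5, 3 for E12.5 minus E9.5 and 0 for d6 female minus d6 male. In the same order 547, 1541, 950, 1294, 2058, 1496, 3414 and 225 of 13436 genes were called. The members had been chosen on the E9.5 arrays. Zfp503 had also been among the largest differences of d6 female minus d3 and d3ag6 minus d6 female. Nothing is therefore read from the counts of these comparisons, here or under the settings below.

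With 1 array left out, a group rests on 1 array, so differences alone are given. Which members passed in d6 female minus d3 and in the comparisons of d3ag6 changed with the array left out. Zfp503 ranged from -4.96 to -3.26 in d6 female minus d3 and from 4.3 to 5.56 in d3ag6 minus d6 female. In d6 male minus E9.5, Nr2f1 ranged from -6.21 to -4.35 and Nr2f2 from -5.18 to -2.94. Meis2 ranged there from -2.67 to -1.57 and Zfp503 from -6.03 to -4.46. In E12.5 minus E9.5, Zfp503 ranged from -1.66 to -0.08. Without both E9.5 arrays, the number of members called was 2 in d6 female minus d3 (Meis2 added) and 2 in d3ag6 minus d3. It was 3 in d3ag6 minus d6 female (Nr2f1 and Meis2 added) and 1 in d3ag6 minus E12.5. Of all genes 4.60%, 11.2%, 7.09% and 9.47% were called in these 4 comparisons. Nr2f1 and Nr2f2 entered those fits only by the filter on E9.5 values. With the filter on the 10 remaining arrays 3 members were tested, and the counts were 2, 0, 2 and 0. There 4.73%, 11.4%, 7.49% and 9.65% of all genes were called. In fits of each comparison's own arrays the number of members called was 0, 1, 3 and 2 in these 4 (1.10%, 5.69%, 4.23% and 12.3% of all genes called). It was 2 in d6 male minus E9.5 (2.17%) and 3 in d6 female minus E9.5 (4.17%). With the array code as a block, d6 male minus E9.5 gave 4 members among 2004 of 13436 genes called. With the floor the number of members called was 0 in d6 female minus d3, where 4.52% of all genes were called. With the mean of all probe sets it was 2 in d3ag6 minus d6 female, where 573 of 12074 genes were called. With the filter at the 75th percentile, 7.59, which leaves 2 members tested (Meis2 and Zfp503), it was 2 in d6 female minus E9.5, 2 in d6 male minus E9.5 and 1 in E12.5 minus E9.5. There 16.3%, 12.8% and 30.7% of all genes were called. With 1450992_a_at for Meis1, a probe set above 4.81 in E9.5 cells alone, it was 1 in d3ag6 minus d3 (10.7% of all genes called). It was then 5, 5 and 4 in d6 female, d6 male and E12.5 minus E9.5 (13.9%, 10.6% and 23.6%).

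Meis1 changed sign with the mean of all its probe sets, to 0.77 in d6 female minus d3 and -1.12, -0.88 and -1.04 in d6 female, d6 male and E12.5 minus E9.5. With 1450992_a_at these were 2.35, -3.30, -3.14 and -2.86. As deposited, Meis1 was -0.03 in E12.5 minus E9.5. With 1 array left out, its difference ranged from -0.18 to 0.05 in d6 female minus d3, from -0.10 to 0.13 in d3ag6 minus d3, from -0.24 to 0.11 in d6 female minus d6 male and from -0.14 to 0.17 in E12.5 minus E9.5. Zfp503 ranged from -0.03 to 1.67 in d3ag6 minus d3, the lowest without d3 replicate 1, and Nr2f2 from -0.09 to 0.26 in d6 female minus d6 male. The cause of each change of sign was not tested.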
